A study of Mus musculus with 27 samples.

Results

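Natural killer (NK) and cytotoxic effector genes are described here as 9 genes chosen by symbol: Gzma, Gzmb, Prf1, Nkg7, Ncr1, Klrd1, Eomes, Tbx21 and Ifng. All 9 were found among the 16024 rows of the deposited table, each row being a mouse gene. Their levels were followed in 27 RNA sequencing libraries of dissociated mouse lung, with total lung cells first and the sorted cells after them.

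The mice were of the C57BL/6 strain, and the study set cell preparations of tumour lung against their counterparts from wild-type (WT) lung. Tumour lungs came from mice injected through the tail vein with HKP1 cells, a cultured lung cancer line, and were taken between day 20 and day 25 of tumour growth. WT lungs carried no tumour, and the labels name no sham injection for them. The 10 groups were total lung cells from tumour lung (3 libraries) and WT lung (3), CD11b+Ly6C+ monocytes from tumour (2) and WT lung (2), macrophages from tumour (3) and WT lung (2), CD11b+Ly6G+ neutrophils from tumour (3) and WT lung (3), and Epcam+CD11b-CD11c- epithelial cells from tumour (3) and WT lung (3). The macrophage gates differed, being CD11c+CD11b+ in tumour lung and CD11c+CD11b- in WT lung. No gate of the study selected NK cells or T cells. The labels give no age, and they do not say how many animals stand behind a library or whether each library had its own animals. A p-value here therefore covers the spread among these samples, which may be technical.

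NK cells and activated CD8 T cells kill by releasing granules that hold perforin, which forms pores in the target membrane, and granzymes, proteases that enter through them and start cell death. NK cells read their targets through activating receptors such as NKp46 and through receptors of the CD94 family that bind non-classical MHC class I. The T-box factors Eomes and T-bet drive this programme and the production of interferon gamma, and in the lung NK cells are known for their part in the control of tumour cells that arrive through the blood.

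Levels are FPKM, fragment numbers divided by transcript length and by the mapped total of the library, as deposited. Relative depth, read from the spacing of the lowest values, lay between 0.678 and 1.28 times that of tumour total lung replicate 12, and between 0.717 and 1.23 times in total lung cells. Between 10894 and 11420 genes reached 1 FPKM in the total lung libraries. Pearson correlations of log2 values between libraries of a group were 0.987 to 0.989 in tumour and 0.989 to 0.994 in WT total lung cells. Replicate numbers below are those in the sample titles.

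The genes are protein-coding in the GENCODE M21 annotation of GRCm38. They are Klrd1 on chromosome 6 (129591782 to 129598775), Ncr1 and Nkg7 on chromosome 7 (4337724 to 4345164 and 43437073 to 43438249), Eomes on chromosome 9 (118478212 to 118486132) and Prf1 and Ifng on chromosome 10 (61297833 to 61304680 and 118441046 to 118445892). Tbx21 lies on chromosome 11 (97098071 to 97115331), Gzma on chromosome 13 (113093825 to 113100981) and Gzmb on chromosome 14 (56258838 to 56262260).

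Promoter sequence from RefSeq (GRCm38.p6) was at hand for 8 of the 9 genes, as windows of 300 bases from 250 before to 50 after the start site. Each window was searched on both strands for the letters TGTGGT (a RUNX core), AGGAAG (an ETS core) and GGTGTG (a T-box core), since RUNX, ETS and T-box factors are known to act on cytotoxic genes. The RUNX letters were found in 5 of the 8 genes, namely Gzma, Gzmb, Prf1, Nkg7 and Ncr1, and in 16.8% of all 32851 promoter windows. The ETS letters were found in Prf1, Nkg7 and Tbx21 and in 35.4% of all windows. The T-box letters were found in Nkg7 alone and in 19.05% of all windows. The windows of Eomes and Ifng held none of the 3. The 250 bases before the start site are shown for the 5 genes with the RUNX letters, with every match to any of the 3 motifs in capitals.
Gzma, chr13:113100982-113101231, minus strand: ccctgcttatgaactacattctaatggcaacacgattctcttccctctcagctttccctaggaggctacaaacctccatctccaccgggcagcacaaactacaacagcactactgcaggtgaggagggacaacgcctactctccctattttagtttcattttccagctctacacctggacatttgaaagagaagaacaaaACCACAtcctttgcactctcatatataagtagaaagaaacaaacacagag
Gzmb, chr14:56262335-56262584, minus strand: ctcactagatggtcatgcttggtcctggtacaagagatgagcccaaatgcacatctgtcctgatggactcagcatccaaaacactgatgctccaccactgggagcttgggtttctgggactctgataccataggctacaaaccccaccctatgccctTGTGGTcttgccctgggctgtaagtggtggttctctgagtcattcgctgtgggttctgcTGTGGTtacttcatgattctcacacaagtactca
Prf1, chr10:61297586-61297835, plus strand: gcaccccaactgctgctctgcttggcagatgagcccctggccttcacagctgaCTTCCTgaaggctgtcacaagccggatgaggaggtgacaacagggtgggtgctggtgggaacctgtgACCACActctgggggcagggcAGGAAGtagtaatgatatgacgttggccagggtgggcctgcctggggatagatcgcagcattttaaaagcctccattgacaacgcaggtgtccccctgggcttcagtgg
Ncr1, chr7:4337474-4337723, plus strand: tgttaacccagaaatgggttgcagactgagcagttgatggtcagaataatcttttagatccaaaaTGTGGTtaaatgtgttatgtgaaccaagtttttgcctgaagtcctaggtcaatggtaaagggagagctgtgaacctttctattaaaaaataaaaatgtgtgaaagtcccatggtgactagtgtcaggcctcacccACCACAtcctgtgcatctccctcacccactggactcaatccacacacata
Nkg7, chr7:43436888-43437137, plus strand: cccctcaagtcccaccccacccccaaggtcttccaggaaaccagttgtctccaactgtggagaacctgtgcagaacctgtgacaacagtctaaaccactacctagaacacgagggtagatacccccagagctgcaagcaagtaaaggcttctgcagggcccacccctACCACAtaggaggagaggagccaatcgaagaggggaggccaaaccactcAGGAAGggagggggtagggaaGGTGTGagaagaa
Counted from the start site, the RUNX letters began at -50 in Gzma, at -93 and -34 in Gzmb, at -130 in Prf1, at -185 and -50 in Ncr1 and at -83 in Nkg7. RefSeq gives Ncr1 a second start site a few bases away, whose window holds the same pair of matches. No match overlapped another. A match here is a description of the letters, not a bound site.

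In total lung cells all 9 effector genes were lower in tumour than in WT libraries. Of the 9, the fall was largest in 4 genes: Gzma, Gzmb, Prf1 and Ncr1 stood at 29.8%, 32.9%, 32.2% and 32.1% of their WT means. It was smallest in Tbx21 and Klrd1, at 71.3% and 70.5%. By limma on log2(FPKM + 1), with an adjusted p of 0.05 as the threshold over 11747 genes, 9 of 9 were called lower, where 20.4% of all genes tested were. In each of the 9 genes every tumour library lay below every WT library, as it did in 27.6% of all genes. The median log2 change of the 9 was -1.20, and that of all genes tested was -0.01. In a bulk preparation, fewer cells that express a gene and less RNA of it per cell cannot be told apart.

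**Figure D1:**
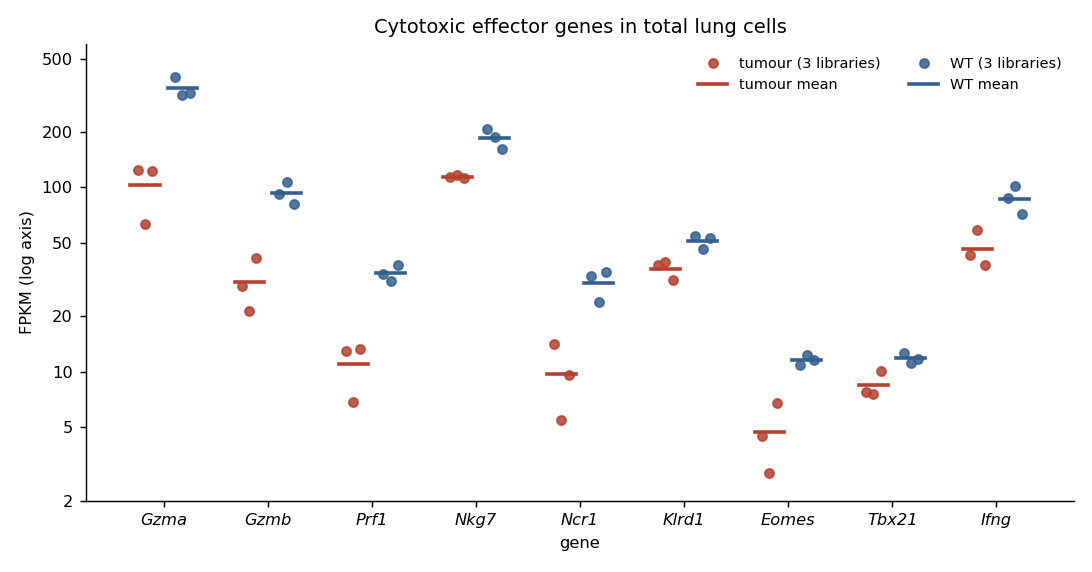
FPKM (log axis) of the 9 effector genes in total lung cells, with tumour libraries left of WT libraries; points are single libraries (3 per group) and bars the group means. In every gene the tumour points lie below the WT points, with the widest ratio in Gzma (means of 103.5 and 347) and the narrowest in Tbx21 (8.46 and 11.9).

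Gzma, which encodes the trypsin-like protease granzyme A, had 124.5, 63.3 and 122.8 FPKM in tumour libraries 12, 13 and 14, against 396.6, 317.8 and 327.2 FPKM in WT libraries 11, 12 and 13. The groups lay far apart, and tumour library 13 was the lowest of all 6. The means were 103.5 ± 34.9 FPKM in tumour and 347 ± 43.1 FPKM in WT total lung cells (SD, n = 3 each), a log2 change of -1.79 (SE 0.26, limma adjusted p = 0.00172). Gzmb, which encodes granzyme B, the granzyme that cleaves caspases and other targets after aspartate, had 29.3, 21.4 and 41.4 FPKM in tumour libraries, against 91.7, 106.9 and 81.1 FPKM in WT libraries. Its lowest WT library stood well above its highest tumour library. The log2 change was -1.61 (SE 0.23, adjusted p = 0.0015).

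Prf1, the perforin gene, had 12.98, 6.89 and 13.4 FPKM in tumour total lung libraries, against 34.0, 31.0 and 38.2 FPKM in WT libraries. Tumour library 13 was again the lowest, and all 3 tumour values lay under 14 FPKM. The log2 change was -1.60 (SE 0.23, adjusted p = 0.00169). Nkg7, a membrane protein of cytotoxic granules that takes part in their release, behaved otherwise within the groups, with 113.8, 117.4 and 112.3 FPKM in tumour libraries, against 207.9, 188.4 and 162.3 FPKM in WT libraries. Its tumour libraries were nearly equal to each other and tumour library 13 was not low. The log2 change was -0.69 (SE 0.12, adjusted p = 0.00323).

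Ncr1, which encodes the activating receptor NKp46 and is the most NK-restricted gene of the 9, had 14.2, 5.50 and 9.59 FPKM in tumour total lung libraries, against 33.0, 23.8 and 34.6 FPKM in WT libraries. The groups did not overlap, although the tumour libraries spread widely. Its log2 change was -1.61 (SE 0.30, adjusted p = 0.00456). Klrd1, which encodes CD94, the partner chain of the NKG2 receptors, had 37.8, 39.7 and 31.4 FPKM in tumour libraries, against 54.6, 46.5 and 53.4 FPKM in WT libraries. The gap between the groups was small beside that in Ncr1. The log2 change was -0.50 (SE 0.12, adjusted p = 0.0140), and the call ended without WT replicate 11 (adjusted p = 0.0581).

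Eomes and Tbx21 encode the T-box factors Eomesodermin and T-bet. Eomes had 4.49, 2.83 and 6.82 FPKM in tumour total lung libraries, against 10.97, 12.3 and 11.6 FPKM in WT libraries. The WT libraries lay close together and the tumour libraries, with library 13 lowest, did not. Its log2 change was -1.20 (SE 0.24, adjusted p = 0.00601). Tbx21 had 7.73, 7.54 and 10.1 FPKM in tumour libraries, against 12.6, 11.2 and 11.7 FPKM in WT libraries. Its highest tumour library came close to its lowest WT library, and the log2 change was -0.45 (SE 0.13, adjusted p = 0.0258). The Tbx21 call held in the fewest alternatives of the 9. It ended without tumour replicate 12 or 13 (adjusted p = 0.0754 and 0.0671) and without WT replicate 11, 12 or 13 (adjusted p = 0.0931, 0.051 and 0.0626).

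Ifng encodes interferon gamma, the cytokine by which NK cells and T cells activate macrophages and raise antigen presentation. It had 43.0, 58.5 and 37.9 FPKM in tumour total lung libraries, against 87.6, 101.8 and 71.7 FPKM in WT libraries. Tumour library 13, the lowest for Gzma, Gzmb, Prf1, Ncr1, Eomes and Tbx21, was here the highest tumour library. The log2 change was -0.90 (SE 0.19, adjusted p = 0.00771). With the spread estimated over all 10 groups together, 5 of the 9 genes were called lower, and Nkg7, Klrd1, Tbx21 and Ifng were not (adjusted p = 0.282, 0.241, 0.188 and 0.179). Without tumour replicate 13, which was chosen for this check after its values were seen, 8 of 9 were called lower, all but Tbx21. Of all genes, 1630 to 2179 were called lower with 1 library left out in turn. Over the other alternatives, the fit of all 10 groups among them, 1138 to 2736 were.

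Markers of other cell types changed in both directions in total lung cells. Macrophage markers were higher in 8 of 8 genes tested, where 22.1% of all genes were (summed level 778 to 1547 FPKM in tumour and 169 to 212 FPKM in WT libraries) and neutrophil markers in 6 of 9, with 1 lower (3651 to 9178 FPKM against 1833 to 2709 FPKM). B cell markers were lower in 10 of 10 (221 to 600 FPKM in tumour and 977 to 1722 FPKM in WT libraries) and endothelial markers in 10 of 10 (79.7 to 193 FPKM against 455 to 971 FPKM). Epithelial markers were split. Sftpc, named after its values were seen, is listed at 0 in all 3 WT libraries and at 578 to 3961 FPKM in tumour libraries, while Sftpb averaged 159 FPKM in tumour and 1606 FPKM in WT libraries, so a 0 for Sftpc can be a failed estimate. Of the other 10 epithelial markers 3 were higher and 4 lower (summed level 628 to 1818 FPKM in tumour and 3542 to 11711 FPKM in WT libraries). Markers of basophils and mast cells were lower in 2 of 6, Gata2 and Kit (log2 changes of -1.87 and -1.20). Those of plasmacytoid dendritic cells were higher in 2 of 6, Runx2 among them (1.05), and lower in 2, Ly6d and Tcf4 (-2.06 and -0.82). The part of these shifts in the change of the effector genes was not tested.

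T cell markers, which share CD8 T cells as a possible source with the granzymes, perforin and interferon gamma, had a smaller median change than the effector genes. Of 22 genes tested 6 were lower, none was higher and 16 were not called, with a median log2 change of -0.19. That count of lower genes lies near the 20.4% of all genes tested. Of those that passed, the largest falls were in Cd8b1, a chain of the CD8 coreceptor (36.7 ± 6.41 FPKM in tumour and 60.1 ± 8.59 FPKM in WT, log2 change -0.70, limma adjusted p = 0.0106), Cd247, a signalling chain that NK cells also use (-0.55, adjusted p = 0.00691), and the adhesion gene Cd2 (-0.53, adjusted p = 0.0417). Cd8a, another chain of CD8, was named after its values were seen and was not called. It averaged 26.7 ± 6.35 FPKM in tumour and 24.4 ± 3.56 FPKM in WT libraries (log2 change 0.11, limma adjusted p = 0.673). Cd3e, named here after its values were seen because it defines T cells, stood at 38.0 ± 6.74 FPKM in tumour and 39.6 ± 0.317 FPKM in WT libraries (n = 3 each, log2 change -0.07, adjusted p = 0.689). The summed T cell list held 962 to 1225 FPKM in tumour and 1234 to 1436 FPKM in WT libraries. The 9 effector genes together had 323, 386 and 388 FPKM in tumour libraries, against 792, 840 and 929 FPKM in WT libraries. Set against the T cell sum of the same library, they came to 0.403, 0.315 and 0.315 in tumour libraries 12, 13 and 14, and to 0.704, 0.681 and 0.551 in WT libraries 11, 12 and 13. The 2 groups did not overlap in that ratio. Sums of FPKM weigh genes of high level most. Gzma averaged 103.5 FPKM in tumour and 347 FPKM in WT libraries, and Tcf7, named after its values were seen, 234 and 370 FPKM. The ratio without these genes was not computed.

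**Figure D2:**
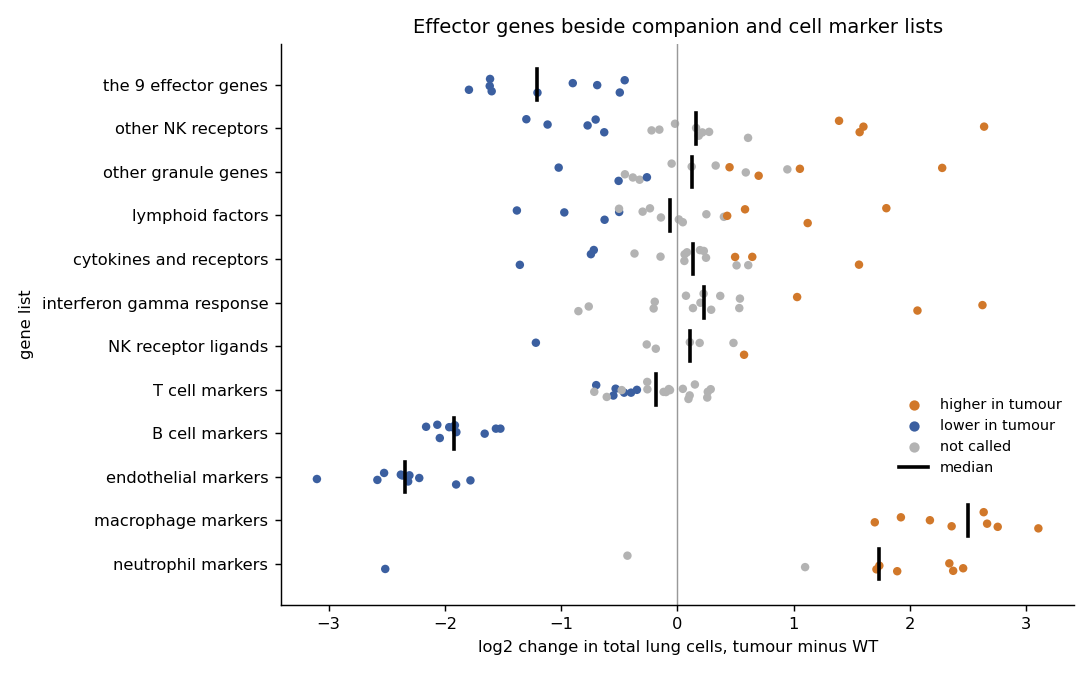
Log2 change (tumour minus WT, on log2(FPKM + 1)) in total lung cells of each tested gene of the 9 effector genes and of companion and cell marker lists; dots are genes, coloured by call, and bars are list medians. The effector genes lie wholly below 0 with a median of -1.20, as do the B cell and endothelial markers with medians of -1.92 and -2.34. The NK receptor, granule and factor lists spread to both sides of 0.

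Further genes of the NK cell were called in both directions, at shares near those of all genes tested in total lung cells (22.1% higher and 20.4% lower), so the counts below describe the lists and set none of them apart. Of 34 listed receptors and surface molecules, 17 were in the table and tested, and 4 were higher, 5 lower and 8 not called (median log2 change 0.16). Absent were all listed Klrb1, Klra and Klri genes, Klre1, Klrc2, Klrc3 and Sh2d1b2, so the counts do not cover these receptors. The lower ones were Klrk1, which encodes NKG2D (log2 change -0.63), Klrc1, which encodes NKG2A (-0.77), the inhibitory receptor gene Klrg1 (-1.12), the integrin gene Itga1 (-0.70) and S1pr5, which guides NK cells out of tissues (-1.30). The higher ones were Fcgr3, Tyrobp, Sh2d1b1 and Tigit. Tigit averaged 31.2 ± 14.6 FPKM in tumour and 10.6 ± 1.98 FPKM in WT total lung cells (log2 change 1.39, limma adjusted p = 0.00835). Its highest mean among sorted macrophages, neutrophils and epithelial cells was 2.89 FPKM, in tumour epithelial cells. Fcgr3, a low-affinity Fc receptor, averaged 238 ± 44.4 FPKM in tumour and 38.0 ± 12.03 FPKM in WT total lung cells (n = 3 each, log2 change 2.64, SE 0.22, adjusted p = 0.000247), and 457 FPKM in sorted tumour macrophages. Tyrobp, the adaptor DAP12, averaged 1306 ± 353 FPKM in tumour and 421 ± 28.0 FPKM in WT total lung cells (log2 change 1.60, adjusted p = 0.000925), and 4289 FPKM in sorted WT neutrophils. Sh2d1b1, an adaptor of SLAM family receptors, averaged 18.3 ± 5.39 FPKM and 5.32 ± 0.343 FPKM in tumour and WT (1.57, adjusted p = 0.00113), and 106 FPKM in sorted WT macrophages. In 3 of the 4 higher receptors, 1 of the 5 lower ones and 5 of the 8 not called, a group of sorted macrophages, neutrophils or epithelial cells averaged above both total lung groups. In none of the 9 effector genes did such a group, but this count left out the sorted monocytes, where the 9 genes are high. Gzma, for example, averaged 455 FPKM in WT monocytes and 347 FPKM in WT total lung cells. The share among all genes was not computed, so these counts are descriptions alone.

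Of 22 listed genes of granules, their release and death ligands, 15 were tested, with 4 higher, 3 lower and 8 not called (median log2 change 0.12). Gzmc, a granzyme gene of the Gzmb cluster, averaged 8.23 ± 6.43 FPKM in tumour and 0.544 ± 0.0895 FPKM in WT total lung cells, a log2 change of 2.28 (SE 0.53, adjusted p = 0.0114) and thus opposite in sign to Gzma and Gzmb. How fragments shared by related granzyme genes were assigned is not given in the sources used here. Lamp1, a lysosomal membrane protein found in most cells, was higher (359 ± 81.7 and 170 ± 17.9 FPKM, log2 change 1.05, adjusted p = 0.00385). The death ligand TRAIL, encoded by Tnfsf10, was lower (4.39 ± 0.69 FPKM in tumour and 10.1 ± 2.83 FPKM in WT, log2 change -1.02, adjusted p = 0.00474).

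Among 16 tested transcription factors of NK and innate lymphoid cells, 4 were higher, 4 lower and 8 not called (median log2 change -0.06). Nfil3, which is needed for NK cell development, averaged 86.4 ± 11.97 FPKM in tumour and 24.1 ± 3.31 FPKM in WT total lung cells (log2 change 1.798, SE 0.14, adjusted p = 0.000205). Prdm1, which encodes Blimp-1, was higher (15.6 ± 0.372 and 6.80 ± 2.13 FPKM, log2 change 1.12, adjusted p = 0.00272), and the Ikaros family gene Ikzf3 was lower (23.6 ± 5.08 and 62.3 ± 5.48 FPKM, -1.38, adjusted p = 0.000809). A mean in sorted macrophages, neutrophils or epithelial cells above both total lung means was reached by 4 of the 4 higher factors, none of the 4 lower ones and 5 of the 8 not called. Among the cytokines and receptor chains described next it was reached by 2 of the 3 higher, 1 of the 3 lower and 5 of the 10 not called.

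Of the cytokines that act on NK cells and their receptor chains, 16 of 17 were tested, with 3 higher, 3 lower and 10 not called (median log2 change 0.14). Il18, which with interleukin 12 induces Ifng, averaged 36.8 ± 20.4 FPKM in tumour and 10.5 ± 1.88 FPKM in WT total lung cells (log2 change 1.56, adjusted p = 0.0147). Il12a, the p35 chain of interleukin 12, was lower (2.79 ± 1.23 and 8.49 ± 1.76 FPKM, -1.36, adjusted p = 0.0039), as was its receptor chain Il12rb2 (3.32 ± 0.926 and 6.16 ± 0.935 FPKM, -0.74, adjusted p = 0.0165). Genes known to be induced by interferon gamma were higher in 3 of 15 tested and lower in none, with 12 not called (median log2 change 0.23). That count of higher genes lies near the 22.1% of all genes tested. These 3 were Cxcl10 (110 ± 45.2 FPKM in tumour and 16.4 ± 4.12 FPKM in WT, log2 change 2.63, adjusted p = 0.000662), Cxcl9 (6.26 ± 3.82 and 0.584 ± 0.137 FPKM, 2.07, adjusted p = 0.00301) and Cd274, which encodes PD-L1 (116 ± 33.8 and 54.7 ± 3.25 FPKM, 1.03, adjusted p = 0.00484). The first pair encode chemokines that draw CXCR3-bearing NK and T cells.

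Ligands of NK receptors were in the table for 7 of 19 listed genes. In total lung cells 1 was higher, Cdh1, which encodes the KLRG1 ligand E-cadherin (39.1 ± 4.37 FPKM in tumour and 26.4 ± 7.34 FPKM in WT, log2 change 0.57, adjusted p = 0.0411). Clec2i, a C-type lectin of the family bound by NKR-P1 receptors, was lower (11.3 ± 1.56 and 27.7 ± 4.16 FPKM, -1.22, adjusted p = 0.000849), and 5 were not called. In sorted epithelial cells none of the 7 passed, and Cdh1, the highest of them, averaged 192 ± 7.06 FPKM in tumour and 192 ± 6.81 FPKM in WT libraries.

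Over the 10 groups the 9 genes fell into 2 tiers, high in total lung cells and in sorted monocytes, and low in sorted macrophages, neutrophils and epithelial cells. For each of the 9 the lowest total lung or monocyte library exceeded the highest library of the other 6 groups. This split of the groups was drawn from the same values. The share of all genes that separate in this way was not computed, so the tiers describe the 9 and do not set them apart. The margin was widest in Nkg7, at 92.2 FPKM in tumour monocyte replicate 4 against 9.87 FPKM in WT neutrophil replicate 7. It was narrowest in Klrd1, at 27.7 FPKM in tumour monocyte replicate 4 against 25.7 FPKM in tumour macrophage replicate 1. Within the upper tier the order depended on the gene. Gzma, Gzmb, Prf1 and Ncr1 averaged highest in monocytes, then WT total lung cells, then tumour total lung cells, whose 3 libraries lay below all WT total lung libraries. For each of these genes the ranges of both monocyte groups overlapped that of WT total lung cells. Nkg7, Ifng and Klrd1 averaged highest in WT total lung cells, but the ranges of WT total lung cells and WT monocytes overlapped. Tumour total lung cells averaged lowest of the 4 upper groups for each of the 9 genes.

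**Figure D3:**
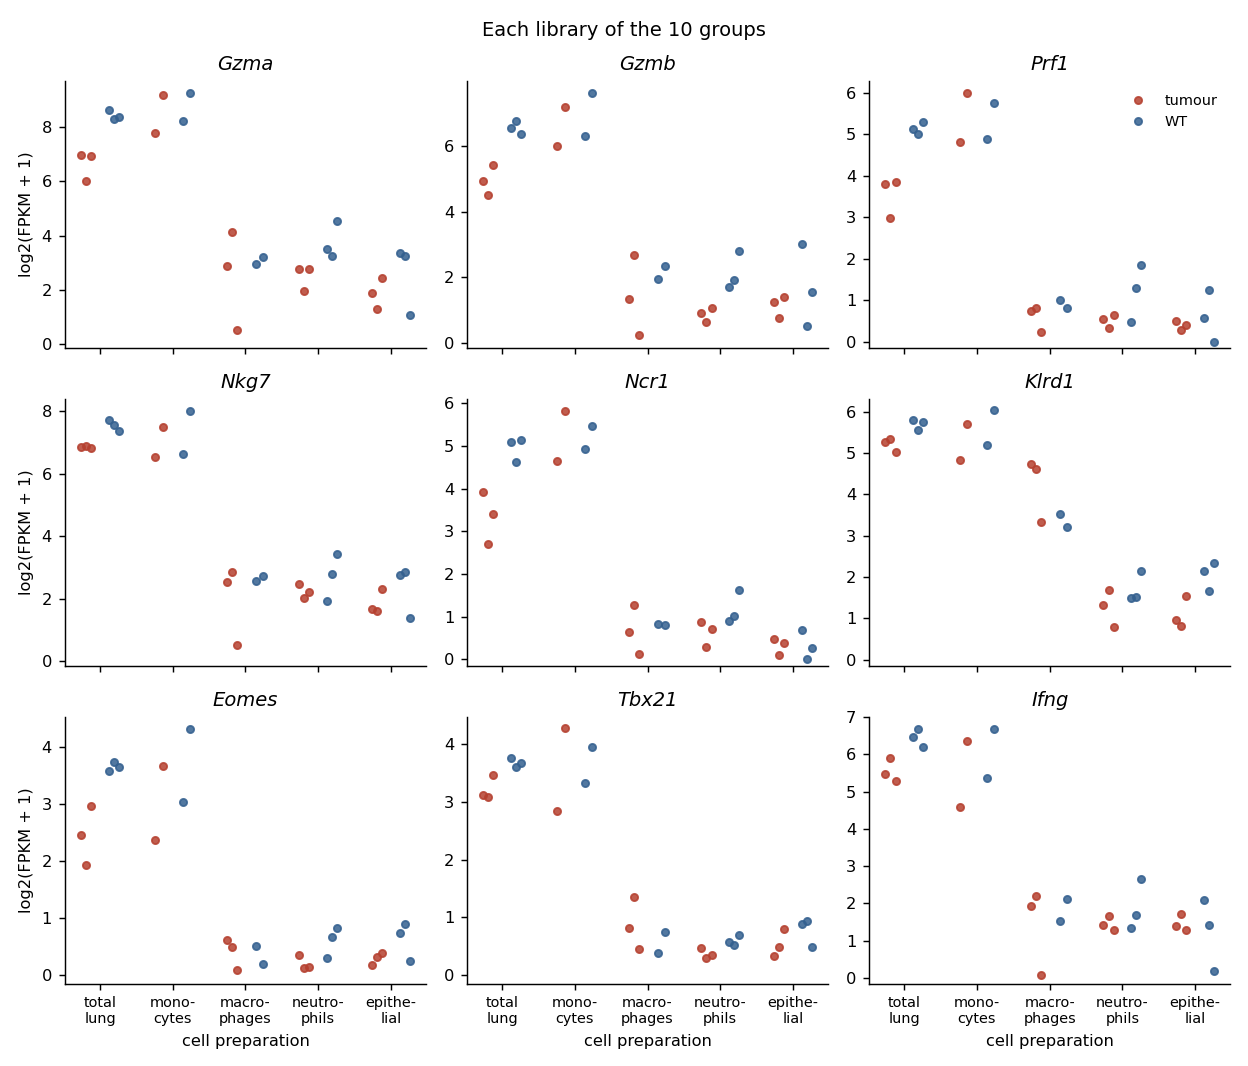
Log2(FPKM + 1) of the 9 effector genes in every library of the 10 groups, tumour left of WT within each cell preparation; each point is 1 library. Total lung cells and monocytes form a high tier and macrophages, neutrophils and epithelial cells a low one, with Klrd1 in tumour macrophages between them.

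In the fit of all 10 groups, tumour total lung cells were set against the mean of the 4 sorted tumour preparations, each with equal weight. All 9 genes were higher in total lung cells, where 45.9% of all 12642 genes were, by 1.47 (Eomes, SE 0.25) to 3.58 (Nkg7, SE 0.40) on the log2 scale. In WT lung all 9 were also higher, where 52.2% of all genes were, by 2.29 (Tbx21, SE 0.22) to 3.91 (Gzma, SE 0.55). The median of all genes lay 0.30 and 0.35 higher in total lung cells in these contrasts, and at -0.06 and -0.07 after quantile normalization, under which all 9 stayed called in both. Without the monocytes, an alternative added after their values were seen, the 9 differences were 2.15 (Eomes) to 4.83 (Nkg7) in tumour and 3.04 (Tbx21) to 5.31 (Gzma) in WT lung. Eomes and Tbx21 passed the filter only through total lung cells and monocytes, where they are high, so their direction was partly set by the filter. Elsewhere Eomes reached at most 0.87 FPKM, and Tbx21 exceeded 1 FPKM in tumour macrophage replicate 2 alone (1.54 FPKM).

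The tumour effect in total lung cells was then tested against the mean tumour effect in the 4 sorted preparations. The difference passed in 2 of the 9 genes, where 8.95% of all genes were called lower. Both genes averaged at most 1.49 FPKM in each group of sorted macrophages, neutrophils and epithelial cells, so on log2(FPKM + 1) the sorted side of this difference had little room to move outside the monocytes. It was -1.44 in Ncr1 (SE 0.38, limma adjusted p = 0.0103) and -1.32 in Prf1 (SE 0.40, adjusted p = 0.0237). In the other 7 it lay between -1.11 (Gzma, SE 0.77, adjusted p = 0.342) and -0.21 (Nkg7, SE 0.57, adjusted p = 0.840) and did not pass. The call of Prf1 ended without tumour total lung replicate 13 or WT replicate 11 or 13 (adjusted p = 0.0946, 0.055 and 0.066), and with a pseudocount of 0.1 neither gene passed.

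The sorted monocytes carried the effector genes at levels of the same order as total lung cells. Mean levels in monocytes were 1.08 to 4.08 times those in total lung cells in tumour lung, above 1 in 9 of 9 genes, and 0.816 to 1.45 times in WT lung, above 1 in 5 of 9. Gzma, for example, had 222 and 589 FPKM in tumour monocyte replicates 4 and 5, against 295 and 614 FPKM in WT monocyte replicates 3 and 4. Ncr1 had 24.2 and 55.5 FPKM in tumour monocytes, against 29.8 and 43.6 FPKM in WT monocytes. Markers of the sort were present beside them: Itgam, which encodes CD11b, averaged 185 ± 53.2 FPKM in tumour and 147 ± 2.35 FPKM in WT monocytes, and the monocyte gene Ccr2 averaged 133 ± 14.8 and 133 ± 41.9 FPKM (SD, n = 2 each). The labels name CD11b and Ly6C for this gate and no NK marker.

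No effector gene was called in monocytes (limma, 0.00% of 10366 genes called lower and 0.00% higher). At an unadjusted p under 0.05 a total of 1559 genes and none of the 9 passed, and no other tool was run. The log2 changes ran from -0.66 (Eomes, SE 0.58) to 0.08 (Prf1, SE 0.46). Gzmb had 62.4 and 145 FPKM in tumour monocytes, against 77.3 and 193 FPKM in WT monocytes. Nkg7 had 92.2 and 178 FPKM in tumour, against 97.6 and 258 FPKM in WT monocytes, and Ifng 23.004 and 80.9 FPKM against 40.4 and 102 FPKM. Within each group the 2 libraries differed in the same direction for every gene. All 9 were higher in tumour replicate 5 than in tumour replicate 4, by 1.84 to 3.52 times (median 2.33), and higher in WT replicate 4 than in WT replicate 3, by 1.46 to 2.65 times (median 2.08). The monocyte gene Csf1r had 294 and 276 FPKM in tumour replicates 4 and 5, against 302 and 245 FPKM in WT replicates 3 and 4. Ccr2 had 123 and 144 FPKM in the same tumour libraries, against 162 and 103 FPKM in the WT libraries. Csf1r was thus lower in the library with the higher effector genes in both pairs, and Ccr2 was lower in it in the WT pair and higher in the tumour pair. The ranges of tumour and WT monocytes overlapped for all 9 genes, and a change could not be detected with these 4 libraries.

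**Figure D4:**
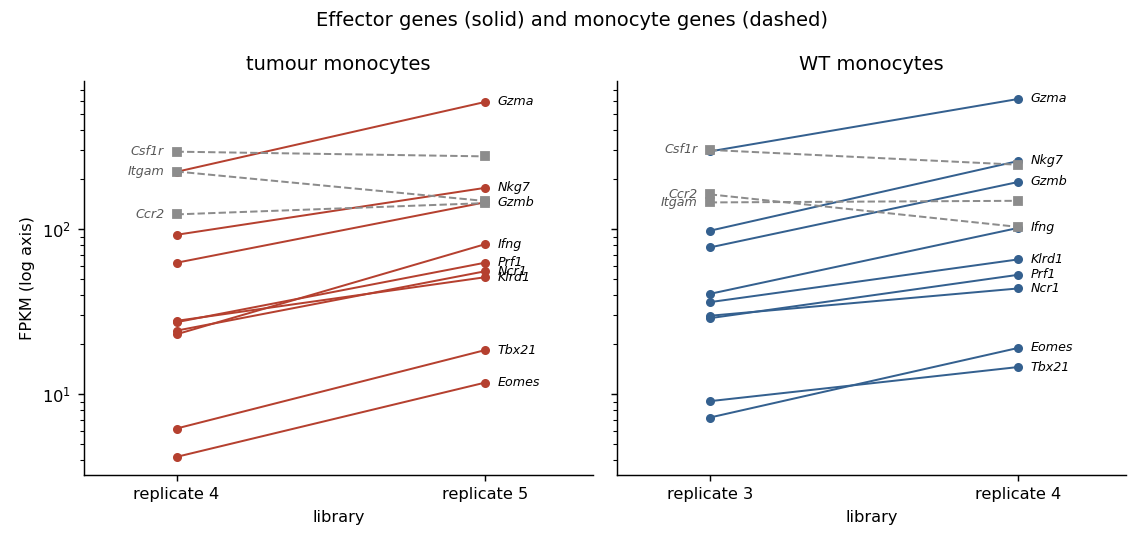
FPKM (log axis) in the 2 tumour monocyte libraries (left) and the 2 WT monocyte libraries (right); solid lines join the values of each effector gene and dashed lines those of Csf1r, Ccr2 and Itgam. All 9 effector genes are higher in the same library of each pair, tumour replicate 5 and WT replicate 4, by medians of 2.33 and 2.08 times.

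The ratio of effector genes to T cell markers was higher in monocytes than in total lung cells in every library. The 9 genes came to 1.71 and 5.58 times the T cell sum in tumour monocyte replicates 4 and 5, and to 3.35 and 4.14 times in WT replicates 3 and 4. In total lung cells that ratio had stayed under 1 in all 6 libraries. Between the monocyte groups none of the 10366 genes was called, so the lack of a call says nothing about markers of other cells. The 9 epithelial and 10 endothelial markers tested had median log2 changes of -2.18 and -2.004. The full list of 11 epithelial markers summed to 91.7 to 126 FPKM in tumour and 665 to 2166 FPKM in WT monocytes. Endothelial markers summed to 116 to 312 FPKM in tumour and 676 to 1043 FPKM in WT monocytes. Neutrophil markers summed to 227 and 2983 FPKM in the lower and the higher of the WT monocyte libraries. S100a8, a neutrophil marker named after its values were seen, had 10.9 FPKM in WT replicate 3 and 666 FPKM in WT replicate 4. It had 43.8 and 77.0 FPKM in tumour replicates 4 and 5. The effector genes were higher in WT replicate 4 and tumour replicate 5. The part of all these markers in the effector gene levels was not tested.

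In neutrophils the 9 genes were low, and 7 of them reached the 1 FPKM filter. Of these 2 were called lower in tumour, where 25.8% of all 9349 genes were. Gzmb, Prf1 and Ncr1 passed the filter mainly through WT libraries, where they are higher, so their direction was partly set by the filter. Gzma had 5.87, 2.85 and 5.82 FPKM in tumour neutrophil replicates 6, 7 and 8, against 10.2, 8.45 and 22.2 FPKM in WT replicates 5, 6 and 7 (log2 change -1.26, SE 0.34, limma adjusted p = 0.0117). Gzmb had 0.879, 0.558 and 1.12 FPKM in tumour neutrophils, against 2.26, 2.78 and 5.97 FPKM in WT neutrophils (-1.27, SE 0.27, adjusted p = 0.00354), and 1 of its 3 tumour libraries reached 1 FPKM. Neither gene overlapped between the groups, as 28.0% of all genes did not with tumour lower, and WT replicate 7 was the highest library for both. Ncr1 did not overlap either but did not pass (adjusted p = 0.0573). The median of all genes lay 0.11 higher in tumour neutrophils. B cell markers were also lower in 10 of 10 genes there (summed level 14.8 to 80.4 FPKM in tumour and 217 to 305 FPKM in WT neutrophils), endothelial markers in 10 of 10 (13.5 to 25.3 FPKM and 80.6 to 102 FPKM) and T cell markers in 6 of 17 (35.6 to 52.9 FPKM and 72.6 to 116 FPKM), and their part in the change was not tested. Neither call held with the spread estimated over all 10 groups (adjusted p = 0.119 and 0.0537), and without WT replicate 5 a total of 5 effector genes were called lower. Of all genes, 2096 to 2296 were called lower with 1 library left out in turn, WT replicate 5 among them.

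In macrophages 5 of the 9 genes were tested and none was called (17.7% of all 10119 genes were called lower and 20.3% higher). Tumour replicate 3 was the lowest tumour library for all 9, and the lower of the other pair stood 2.06 to 49.2 times above it. Gzma had 6.41, 16.4 and 0.426 FPKM in tumour macrophage replicates 1, 2 and 3, against 6.69 and 8.25 FPKM in WT macrophages. Klrd1 was the exception to the low tier, with 25.7, 23.5 and 9.12 FPKM in tumour macrophages, against 10.6 and 8.27 FPKM in WT macrophages. Its log2 change was 0.86 (SE 0.41, adjusted p = 0.141), and 1.30 without tumour replicate 3 (adjusted p = 0.000381). Ncr1 stayed at 0.0912 to 1.42 FPKM in tumour and at 0.778 and 0.761 FPKM in WT macrophages. Without tumour replicate 2 Gzmb was called lower (log2 change -1.37, adjusted p = 0.0351).

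In epithelial cells 5 of the 9 genes were tested and none was called, where 8.89% of all 11823 genes were called lower and 14.9% higher. Klrd1 had 0.958, 0.749 and 1.89 FPKM in tumour epithelial replicates 9, 10 and 11, against 3.44, 2.15 and 4.03 FPKM in WT replicates 8, 9 and 10. The groups did not overlap, as in 21.0% of all genes with tumour lower, and the change missed the threshold (log2 change -0.94, SE 0.28, adjusted p = 0.0505). Klrd1 passed the filter here mainly through WT libraries, where it is higher, so its direction was partly set by the filter. Prf1 and Ncr1 were each listed at 0 in 1 WT epithelial library.

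**Figure D5:**
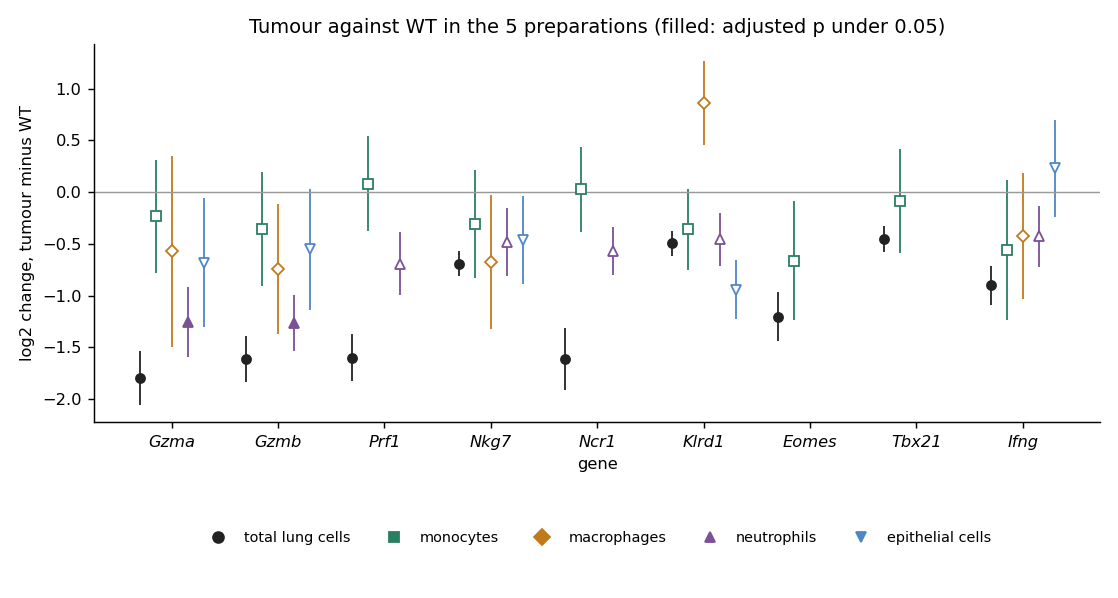
Log2 change (tumour minus WT, on log2(FPKM + 1)) with its SE for each effector gene in the 5 cell preparations; filled symbols passed an adjusted p of 0.05 in limma, open ones did not, and genes under the filter are not drawn. All 9 are filled and below 0 in total lung cells, and of the sorted preparations neutrophils alone have filled symbols, for Gzma and Gzmb.

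Across the 27 libraries the 9 genes moved closely together. Pearson correlations of log2(FPKM + 1) lay between 0.834 and 0.988 over the 36 pairs (median 0.962), from 0.950 to 0.988 among the 28 pairs without Klrd1 and from 0.834 to 0.881 among the 8 pairs with it. These values describe the 2 tiers above all, and genes measured in a library share its depth and cell makeup. The genes whose means over the 10 groups were most like the mean profile of the 9, among 12593 genes, were Samd3 (r = 0.995), Klrc1 (0.994), Adamts14 (0.990), Klrg1 (0.989), the mast cell chymase gene Cma1 (0.980), Il2rb (0.978), Cldnd2 (0.968) and Gm11435 (0.967). Both total lung groups enter that likeness, so the change of these genes in total lung cells is a description and no support. Their log2 changes there ran from -1.44 in Adamts14 to -0.36 in Cldnd2, with -0.67 in Samd3 and -0.72 in Il2rb, the chain shared by the receptors of interleukins 2 and 15.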

How the data were processed

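RNA was measured in 27 libraries, and the deposited values are FPKM. Per the submitters' processing notes, the tools were CASAVA 1.8.2, TopHat2, Cufflinks and Cuffdiff, with the mm10 (GRCm38) build, and the authors' FPKM were used as deposited. Libraries were grouped by the cell type and source labels, and all 27 value columns were matched by title. Fragment counts were not used here, so depth is known in relative terms alone.

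Values were raised by 1 FPKM and put on the log2 scale, so fold changes of low genes are understated. The filter kept a gene that reached 1 FPKM in 2 or more libraries of the comparison. Tests used limma (3.58.1, under R 4.3.3) with empirical Bayes moderation, an intensity trend and Benjamini-Hochberg adjustment over all genes tested. Each preparation was fitted on its own pair of groups, and the contrasts between preparations on all 10 groups. Companion genes were named by a rule, the 3 largest changes per list among those that passed, and other genes follow from a count or are said to be chosen later. The members, lists and tests were chosen with earlier results of these data known. The fits were also tested on simulated data. Alternatives were a pseudocount of 0.1 or 5, no filter or one of 5 FPKM, upper-quartile scaling, quantile normalization, a replicate block, the spread of all 10 groups, leaving out each library and leaving out the macrophages or, added later, the monocytes. Positions came from GENCODE M21 and promoters from RefSeq. Tables and figures were made with pandas 2.3.3 and matplotlib 3.10.9 in Python 3.11.15.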

Additional observations from a re-analysis of the deposited data

Results flagged for a closer look

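In Prf1 and Ncr1 the tumour effect in total lung cells differed from the mean tumour effect in the 4 sorted preparations, by -1.317 in Prf1 and -1.444 in Ncr1 on the log2 scale (limma, adjusted p = 0.0237 and 0.0103, a test of the difference itself). In total lung cells the perforin gene Prf1 averaged 11.1 ± 3.64 FPKM in tumour and 34.4 ± 3.60 FPKM in WT libraries, and the NKp46 gene Ncr1 averaged 9.77 ± 4.37 and 30.5 ± 5.86 FPKM (SD, n = 3 each). In the sorted cell preparation with the highest levels, monocytes, Prf1 averaged 44.9 ± 24.9 FPKM in tumour and 40.8 ± 17.0 FPKM in WT, and Ncr1 39.8 ± 22.1 and 36.7 ± 9.79 FPKM (n = 2 each). The other sorted groups held at most 1.49 FPKM of either gene on average, so a log2 change on FPKM + 1 has little room there. Over the alternatives the adjusted p ran from 0.00112 to 0.368 in Prf1 and from 0.000861 to 0.272 in Ncr1.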

How the results depend on the processing

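In total lung cells Gzma, Gzmb, Prf1 and Eomes stayed lower and called in all 14 alternatives, Ncr1 in 13, Nkg7 and Ifng in 12, Klrd1 in 11 and Tbx21 in 7, and none of the 9 changed sign. The number called lower of the 9 was 5 in the fit of all 10 groups and 7 to 9 with a library left out. Of all genes, 1138 to 2736 were called lower in the alternatives that kept every library and 1630 to 2179 with a library left out. The labels do not say that a shared number marks a pair, so numbers were not taken as pairs. Same-numbered total lung libraries did not deviate together (correlations of 0.004 and -0.022). With the replicate block, which keeps only libraries with a shared number, 4 of the 9 were called lower, with 1285 genes higher and 1138 lower in all, against 2599 and 2394 without it. The block also left 1 gene called higher in macrophages and 4 lower in neutrophils, and turned the sign of Gzma, Nkg7 and Ifng in macrophages (0.43, 0.0558 and 0.24, none called). No paired analysis was possible in monocytes because the groups share a single number.

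In neutrophils the number lower was 1 with a filter of 5 FPKM, 0 in the fit of all 10 groups and 2 to 5 with a library left out. In epithelial cells it was 1 after quantile normalization and in the fit of all 10 groups, and 0 to 1 with a library left out. In macrophages leaving out a library gave 0 to 1 higher and 0 to 1 lower. For the difference between effects it was 0 with a pseudocount of 0.1, 4 with a pseudocount of 5 and 1 to 2 with a library left out. Without macrophages that difference turned to 0.0908 in Klrd1. Leaving out a library changed the sign of values that had not been called. In macrophages Gzma ran from -1.38 to 0.43, Nkg7 from -1.12 to 0.0558 and Ifng from -0.82 to 0.24, each above 0 without tumour replicate 3. In epithelial cells Gzmb ran from -1.14 to 0.10 and Ifng from -0.30 to 0.66. In monocytes, where a lone library was assumed to vary like the others, Gzma ran from -0.94 to 0.47, Gzmb from -1.01 to 0.30, Prf1 from -0.50 to 0.67, Nkg7 from -1.01 to 0.39, Ncr1 from -0.56 to 0.61, Tbx21 from -0.80 to 0.64, Ifng from -1.44 to 0.33 and Klrd1 from -0.79 to 0.069. The cause of these changes was not tested. Over all alternatives, genes called in epithelial cells ran from 307 to 2974 higher and from 90 to 2369 lower (1765 and 1051 as reported), in macrophages from 1105 to 2390 and from 673 to 2214 (2050 and 1788), in monocytes from 0 to 540 and from 0 to 612 (0 and 0), and in neutrophils from 1904 to 3200 and from 1660 to 2833 (3115 and 2409). Total lung cells against sorted cells gave 1382 to 6611 higher and 53 to 1616 lower in tumour (5800 and 110) and 2906 to 7230 and 902 to 3361 in WT (6594 and 1159). The difference between effects gave 827 to 1409 higher and 661 to 1511 lower (1220 and 1132).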
